A study of Homo sapiens with 8 samples.

Results

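The subunit genes of the proteasome are described here in 8 RNA-seq libraries of the human cell line NCI-H2009, which derives from a lung adenocarcinoma. A row of the deposited table was a member when its symbol was PSMA, PSMB, PSMC, PSMD or PSME followed by a number, other than PSMB8 and PSMB9, and when its mean over the 8 libraries was at least 1 RPKM (read numbers scaled to gene model length and sequencing depth). The name rule matched 41 rows, of which 38 passed the minimum, among 52576 genes in the table. The members were 14 core genes (6 PSMA and 8 PSMB) and 24 regulatory genes (6 PSMC, 14 PSMD and 4 PSME). All cells carried dCas9-KRAB, in which a nuclease-dead Cas9 is fused to the KRAB repressor domain. Of the 4 groups of 2 libraries, a control group had received no guide RNA (Empty in the labels), a second control group a guide that has no human target (Dummy or Control), and the other groups e3 #1 or e3 #2, called guide 1 and guide 2 here. Both target e3, an enhancer downstream of MYC. The labels name neither separate cultures for the replicates nor a selection of transfected cells, so the spread behind each p-value may be technical only.

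The proteasome is the main protease of the cytosol and nucleus and degrades proteins tagged with ubiquitin. Its core is a barrel of stacked rings, in which alpha subunits (PSMA genes) form the gates and beta subunits (PSMB genes) the proteolytic chamber. The regulatory particle on its end has a ring of ATPases (PSMC genes) that unfold the substrate, and scaffold, ubiquitin-receptor and deubiquitinase subunits (PSMD genes). The PSME genes encode alternative caps that open the gate without ATP. Subunit genes are known to be transcribed together, under the transcription factor NRF1 (the product of NFE2L1) through antioxidant response elements, and tumour cells with high protein synthesis depend on the particle. PSMD5, PSMD9 and PSMD10 are named as subunits but encode chaperones that help to assemble the ATPase ring.

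The depth inferred from the steps between low values was 3868829 to 5745112 reads per library, and 18240 to 19508 genes were above 0. A member had between 37 and 2457 inferred reads in a library, with a median of 615.5. MYC, the gene upstream of the enhancer, fell with the e3 guides (limma log2 change -1.02 ± 0.10 SE against both controls, adjusted p = 0.00215): it was lower in the 4 libraries with an e3 guide (42.4 and 43.4 RPKM under guide 1, 36.3 and 36.2 under guide 2) than in no-guide (74.6 and 72.7) or non-targeting (88.9 and 90.1) libraries. Treating the mean of each group as 1 sample, so that the libraries of a group do not count as independent, left 1 of 13979 genes called between the e3 guides and both controls, and MYC was not that gene (adjusted p = 0.407). Of 9 markers of lung adenocarcinoma epithelium 7 were above 1 RPKM, and NAPSA and SFTPB were not. Summed over the list, non-targeting libraries had 2684 to 2828 RPKM, e3 libraries 3063 to 3166 and no-guide libraries 3380 to 3497. Keratins weighed most in this sum, with KRT19 at a mean of 1220 RPKM. By group mean, CDH1, KRT7, KRT8 and KRT19 were lowest in the non-targeting libraries. KRT18 and NKX2-1 were lowest under guide 2 (417 and 24.8 RPKM, non-targeting 423 and 26.1). EPCAM was highest in the non-targeting libraries (252 RPKM) and lowest under guide 2 (213). No leukocyte marker of 4 and no endothelial marker of the 2 found was above 1 RPKM, and 1 of 4 fibroblast markers was, COL1A1, with the fibroblast list summing to between 3.33 and 7.18 RPKM. The first principal component over all tested genes placed both libraries without a guide apart from the other 6, so results that rest on the no-guide group are given beside those against the non-targeting guide, which leave it out.

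All families of the particle were expressed in every library, at levels that differed widely within a family. Levels are per length of the gene model that the authors used. Among alpha subunits PSMA7 was the highest, with 118 and 121 RPKM in no-guide libraries, 131 and 139 in non-targeting libraries, 127 and 118 under guide 1, and 116 and 127 under guide 2. The lowest was PSMA5, with 13.8 and 15.2, 20.7 and 19.7, 18.5 and 16.6, and 15.4 and 16.5 RPKM in the same order of groups. The ranges of these alpha subunits lay far apart, with a 7.31-fold ratio of their means over 8 libraries.

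In the beta rings PSMB4, a structural subunit that joins its ring late, was the highest of all members. It had 281 and 282 RPKM in no-guide libraries, 317 and 333 in non-targeting libraries, 289 and 301 under guide 1, and 293 and 266 under guide 2. PSMB10, the interferon-inducible counterpart of the catalytic subunit PSMB7, was the lowest member of its family, at 30.4 and 36.1, 26.6 and 36.6, 30.6 and 43.3, and 26.4 and 26.8 RPKM. Its groups overlapped, except that guide 2 was below guide 1 and below no guide, and its lowest library held 37 inferred reads. The constitutive catalytic subunits had mean levels of 64.7 RPKM (PSMB5, chymotrypsin-like activity), 106 (PSMB6, caspase-like) and 119.6 (PSMB7, trypsin-like).

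Among the ATPases PSMC5 was the highest at a mean of 156 RPKM and PSMC6 the lowest, with 13.5 and 11.0 RPKM in no-guide libraries, 15.9 and 15.9 in non-targeting libraries, 15.1 and 15.03 under guide 1, and 11.5 and 13.5 under guide 2. PSMD8, a subunit of the lid that covers the ATPase base, led the PSMD genes with 143 and 162, 174 and 175, 178 and 174, and 164 and 169 RPKM. The assembly chaperone PSMD9 was the lowest of all members, at 4.91 and 3.97, 5.34 and 5.004, 5.04 and 3.84, and 4.98 and 3.47 RPKM. Of the caps, PSME2 was the highest (mean 96.7 RPKM) and PSME4 the lowest (mean 21.9 RPKM). Between families the median levels were 48.4 RPKM (PSMA), 86.8 (PSMB), 67.9 (PSMC), 67.9 (PSMD) and 70.6 (PSME), a smaller spread than that within any family.

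**Figure D1:**
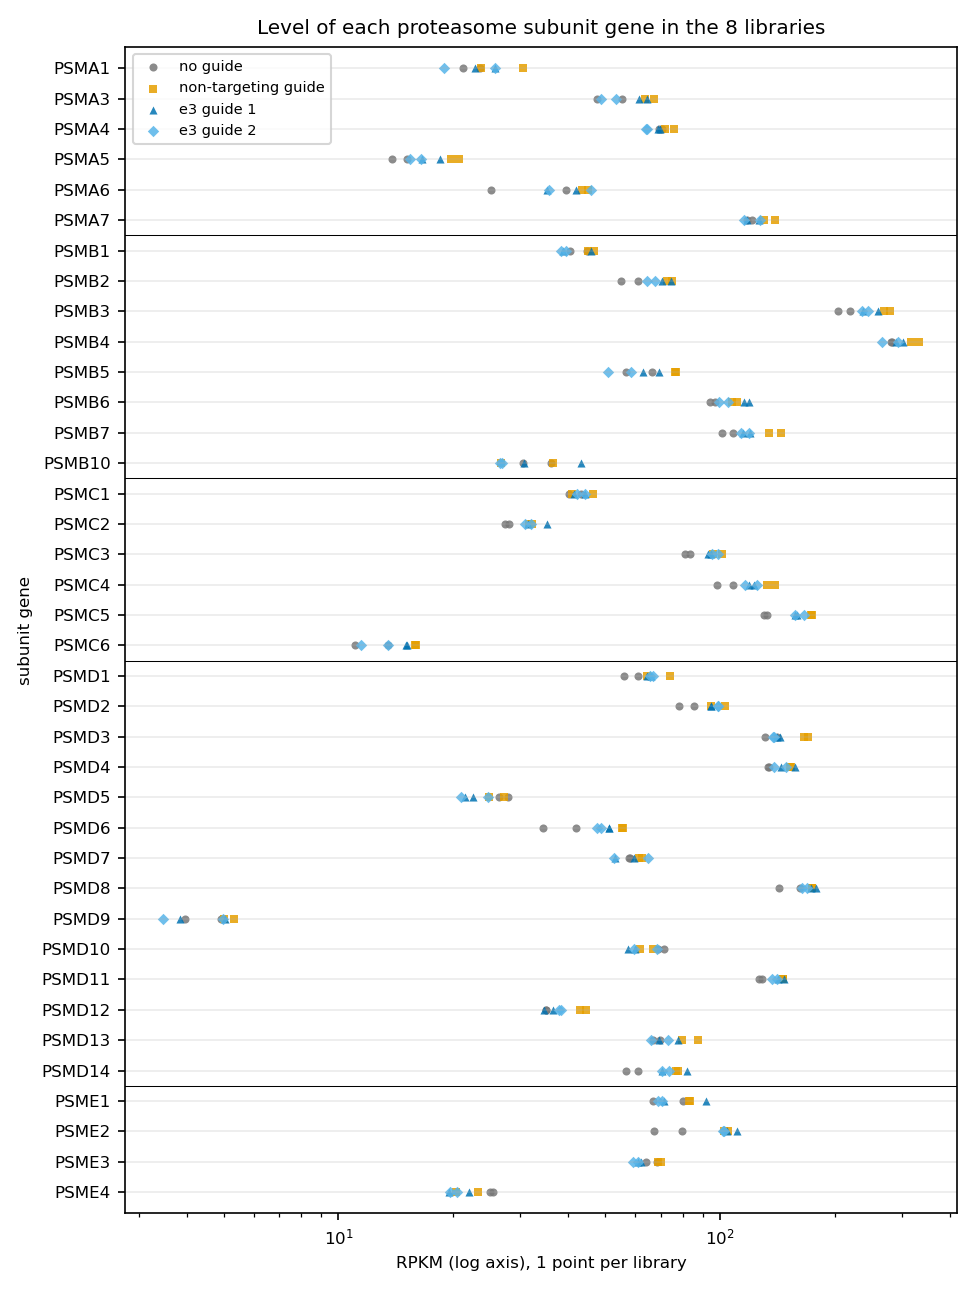
Level of each of the 38 members by group, in RPKM on a log axis, with 1 point per library and members ordered within their family. PSMB4 and PSMD9 mark the highest and lowest level. The 8 libraries of a gene sit close together compared with the full range over the members, and genes of similar level overlap.

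The order of levels depends on the gene model, because the steps between values imply lengths from 323 bases for PSMB10 to 7248 for PSME4. For PSMA1 (554 bases) and PSMA6 (661 bases) the implied length was far below the exon length in GENCODE 29 (3301 and 6506 bases). PSMA1, PSMA6, PSMA2, PSMB10, PSMD9 and PSME2 each share exon bases there with another gene of the same strand. The sources used here do not give how shared reads were assigned. Gaps in length were also found without such sharing, in PSMD6 (1770 of 9123 bases), PSMD14 (2139 of 7698) and PSMA4 (2218 of 6996). PSMA2 was listed at 0 in 7 libraries and at 3.503 RPKM in non-targeting library 2, which amounted to 1 read over an implied length of 60 bases, and an exact 0 of that kind can be a failed estimate. PSMA8 (testis alpha subunit) and PSMB11 (thymus beta subunit) were listed at 0 in all 8 libraries. PSMC1 is uncertain too, because its pseudogene PSMC1P1 was listed at a mean of 36.6 RPKM beside 42.8 for PSMC1, and reads of near-identical copies can be split between them. Overlapping genes on the opposite strand, such as FTSJ3 at PSMC5 and NRDE2 at PSMC1, cannot be told apart here either, since the strand setting of the counting was not given.

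No subunit gene passed the test between the 4 libraries with an e3 guide and the 4 control libraries. Over all 13979 genes tested, 2.63% were called higher and 2.58% lower at an adjusted p under 0.05 (limma on log2(RPKM + 1), Benjamini-Hochberg adjustment). At an unadjusted p under 0.05 there were 2 of 38 members, PSMD5 and PSME3, where 22.2% of all genes tested passed that level. The number of members passing it was 4 without the first no-guide library, 4 and 5 without the first and second non-targeting library, 4 after quantile normalization, 1 without a variance trend and 0 with group means as samples. The median log2 change was -0.05 over core genes and 0.02 over regulatory genes, beside -0.02 over all genes tested. Individual estimates ran from -0.24 to 0.27, and 95% intervals of single members reached from -0.45 (PSMB5) to 0.56 (PSME2). A shift within a member's own interval was not excluded by these libraries.

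For the 2 members with the smallest p, all e3 libraries lay below all control libraries, as did 7.51% of all genes tested. No member had all e3 libraries above (7.58% of all genes), and 17 of 38 estimates were above 0 (46.6% of all genes). PSMD5, the assembly chaperone of the ATPase base, stood at 27.8 and 26.3 RPKM in no-guide libraries, 27.2 and 24.9 in non-targeting libraries, 21.5 and 22.6 under guide 1, and 24.7 and 20.9 under guide 2. Its highest e3 library, from guide 2, was just under its lowest control library. The log2 change was -0.24 ± 0.07 (SE, 95% interval -0.40 to -0.07, adjusted p = 0.101).

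PSME3 encodes the nuclear cap subunit that promotes degradation without ubiquitin, and its gene lies on chromosome 17. Its levels were 68.5 and 64.0 RPKM in no-guide libraries, 69.9 and 68.9 in non-targeting libraries, 60.9 and 62.0 under guide 1, and 59.2 and 60.8 under guide 2. All 4 e3 libraries were close together and below the controls, with a log2 change of -0.16 ± 0.05 (SE, adjusted p = 0.126). Neither gene passed against either control alone: PSME3 had an adjusted p of 0.0742 against the non-targeting guide and 0.193 against no guide, and PSMD5 one of 0.221 and 0.0784.

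The other members near the top of this comparison had overlapping libraries. They include PSME2, PSMB5 and PSMD3, whose libraries are given further below. PSME2 had the largest estimate of any member, upward (log2 change 0.27 ± 0.13 SE, adjusted p = 0.266). PSMB5 (log2 change -0.19 ± 0.12 SE, adjusted p = 0.389) and PSMD3 (-0.11 ± 0.08 SE, adjusted p = 0.495) had estimates below 0. PSME4, the large nuclear cap subunit that also binds acetylated histones, had 25.4 and 24.99 RPKM in no-guide libraries, 23.2 and 20.3 in non-targeting libraries, 19.4 and 22.04 under guide 1, and 19.6 and 20.5 under guide 2. Its e3 libraries reached the level of the lower non-targeting library (log2 change -0.19 ± 0.09 SE, adjusted p = 0.229). PSMA4, a gate subunit, had 69.2 and 70.6, 71.9 and 75.8, 68.6 and 69.5, and 64.5 and 64.2 RPKM in the same order of groups, and its lowest values were those of guide 2 (log2 change -0.11 ± 0.06 SE, adjusted p = 0.306). The chaperone PSMD10, known as gankyrin and able to bind the retinoblastoma protein, gave 71.3 and 68.8, 61.6 and 66.9, 60.0 and 57.4, and 68.2 and 59.4 RPKM. Its libraries without a guide were the highest, and guide 2 spanned the range of the non-targeting libraries (log2 change -0.13 ± 0.07 SE, adjusted p = 0.325).

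PSMB1, a beta subunit without catalytic activity, had 44.8 and 40.5 RPKM in no-guide libraries, 46.7 and 45.1 in non-targeting libraries, 45.8 and 38.7 under guide 1, and 38.4 and 39.4 under guide 2. The first guide 1 library was as high as the controls while the other 3 e3 libraries were lower (log2 change -0.12 ± 0.08 SE, adjusted p = 0.384). The ATPase PSMC2 had 27.3 and 27.9, 31.5 and 32.2, 35.1 and 31.3, and 32.0 and 30.7 RPKM in that order, and only its libraries without a guide stood apart, below the rest (log2 change 0.12 ± 0.08 SE, adjusted p = 0.428).

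**Figure D2:**
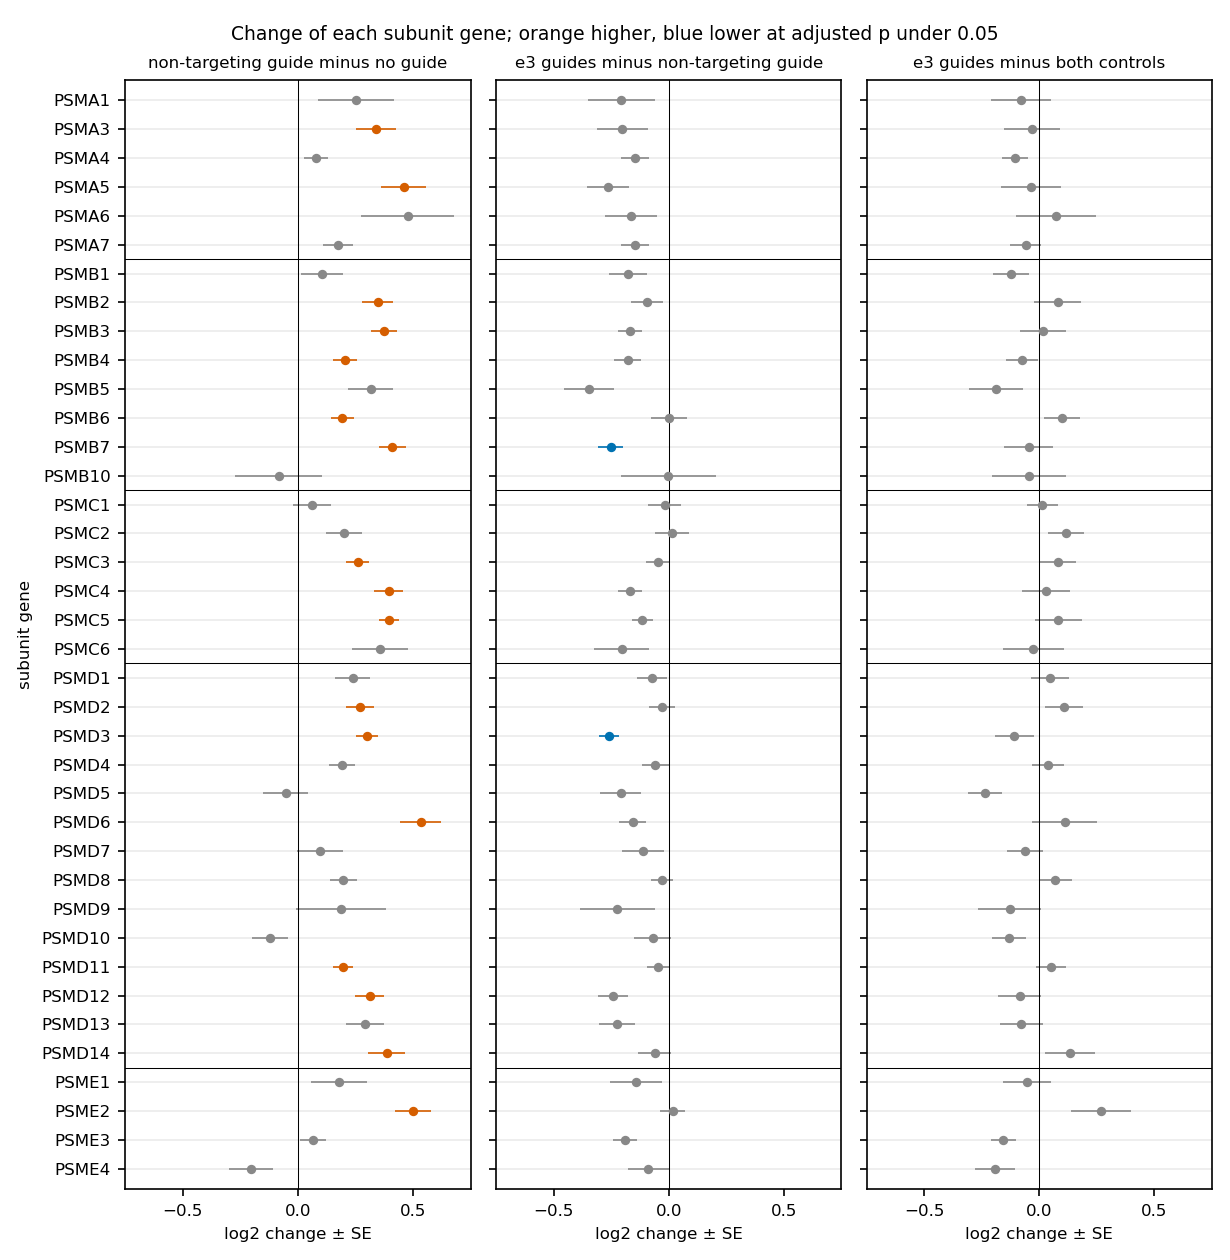
Log2 change on the log2(RPKM + 1) scale for each member, with bars of 1 SE, in a panel per comparison, with called members in orange (higher) or blue (lower). Estimates lie on both sides of 0 between the e3 guides and both controls, 35 of 38 lie below 0 against the non-targeting guide, and 34 of 38 above 0 between the controls.

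The controls themselves differed. With the non-targeting guide 17 of 38 members were higher than without a guide and none was lower, where 6.55% of all genes tested were called higher and 5.81% lower. Core genes made up 7 of 14 (2 PSMA and 5 PSMB) and regulatory genes 10 of 24 (3 PSMC, 6 PSMD and 1 PSME). Both non-targeting libraries lay above both no-guide libraries in 33 of 38 members, against 27.2% of all genes, and 34 estimates were above 0, against 48.8% of all genes. The median log2 change was 0.28 over core and 0.22 over regulatory genes, beside -0.01 over all genes tested and 0.03 over the 6182 genes of at least 10 RPKM. Among those 6182 genes 712 were called higher and 501 lower.

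Summed over the members, the share of all RPKM was 0.814% and 0.822% in no-guide libraries, 0.934% and 0.950% in non-targeting libraries, 0.913% and 0.899% under guide 1, and 0.895% and 0.880% under guide 2. The no-guide libraries were the lowest and the non-targeting libraries the highest, with the e3 libraries between them and nearer to the non-targeting guide. The epithelial marker sum moved the other way between the controls, though EPCAM within it did not, and its part in the result was not tested. In RNA from whole cultures, RNA per cell and the mixture of cells cannot be told apart.

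**Figure D3:**
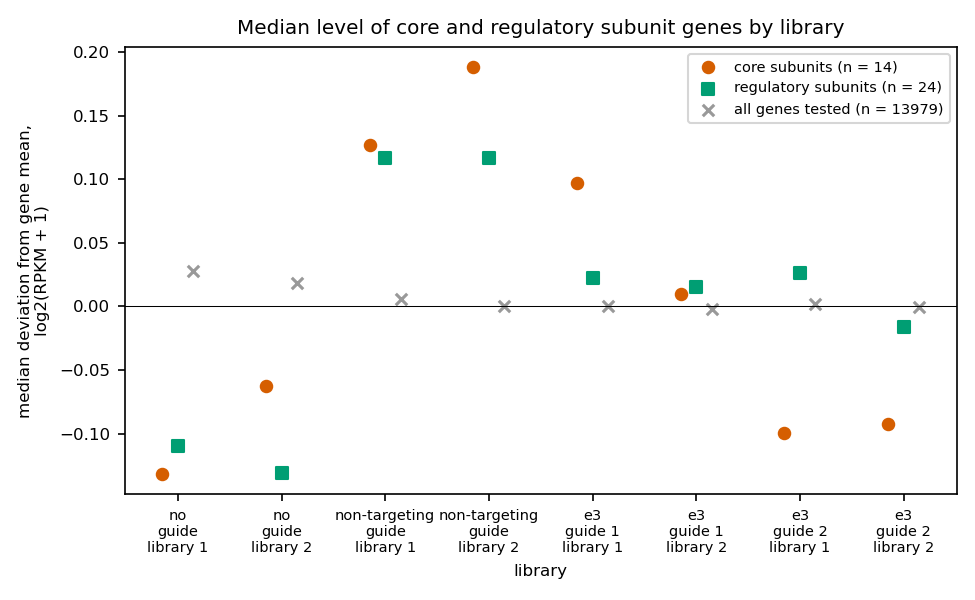
Median deviation of core genes (n = 14), regulatory genes (n = 24) and all genes tested (n = 13979) from each gene's mean over the 8 libraries, in log2(RPKM + 1), per library. Both subunit classes are highest with the non-targeting guide. Regulatory genes are lowest without a guide, and core genes are below 0 both without a guide and under guide 2, where they lie below regulatory genes.

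The promoters of 4 members that rose between the controls are shown because few of their bases lie in annotated exons. Each holds motifs of known subunit regulators, some near the start site and some far from it. Copies of TGANNNNGC lie 14 bases before it in PSMA3 and as far as 233 bases before it in PSMA5. PSMB3 and PSMD3 are among the 6 genes whose call survived leaving out any 1 library, and PSMA5 and PSMA3 are the alpha subunits that rose. Each sequence is the 250 bases before a RefSeq start in GRCh38.p14, read 5′ to 3′ on the strand of the gene. Capitals mark TGANNNNGC (the core of the antioxidant response element) and CCAAT (the box bound by NF-Y), on either strand. In PSMA3 and PSMA5 a copy of each overlaps and forms 1 run of capitals.
PSMB3, chr17:38752491-38752740, plus strand: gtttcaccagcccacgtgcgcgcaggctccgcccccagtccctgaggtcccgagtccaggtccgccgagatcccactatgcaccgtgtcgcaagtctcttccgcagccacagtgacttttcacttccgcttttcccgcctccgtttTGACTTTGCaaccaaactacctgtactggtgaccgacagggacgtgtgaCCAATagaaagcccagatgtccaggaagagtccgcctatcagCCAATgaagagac
PSMD3, chr17:39980557-39980806, plus strand: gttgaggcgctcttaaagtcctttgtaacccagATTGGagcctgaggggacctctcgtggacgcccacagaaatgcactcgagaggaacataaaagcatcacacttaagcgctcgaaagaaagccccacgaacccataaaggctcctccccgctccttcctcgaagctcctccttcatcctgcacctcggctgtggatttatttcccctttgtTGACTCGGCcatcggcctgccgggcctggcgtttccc
PSMA5, chr1:109426449-109426698, minus strand: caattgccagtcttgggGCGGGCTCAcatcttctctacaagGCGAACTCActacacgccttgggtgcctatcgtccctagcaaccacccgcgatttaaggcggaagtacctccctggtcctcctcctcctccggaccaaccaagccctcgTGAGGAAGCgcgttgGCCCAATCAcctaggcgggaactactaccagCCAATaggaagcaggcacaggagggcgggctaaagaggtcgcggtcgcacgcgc
PSMA3, chr14:58244593-58244842, plus strand: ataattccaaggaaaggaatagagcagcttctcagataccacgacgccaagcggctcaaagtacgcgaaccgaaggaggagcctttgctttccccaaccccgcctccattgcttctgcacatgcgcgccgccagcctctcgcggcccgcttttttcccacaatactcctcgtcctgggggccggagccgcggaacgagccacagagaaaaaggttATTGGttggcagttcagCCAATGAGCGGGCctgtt

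Promoters of 33 of 38 members were found in RefSeq, and PSMA7, PSMB1, PSMB6, PSMB7 and PSMD4 had none. TGANNNNGC was present in 19 of 33 members (57.6%) and in 40.3% of the 27305 genes with a RefSeq promoter, called all genes in this paragraph. It was in 11 of the 15 matched members that rose, and whether the motif goes with the rise was not tested. CCAAT occurred in 15 of 33 (45.5%, all genes 37.0%) and the SP1 box GGGCGG in 21 of 33 (63.6%, all genes 46.2%). CCGGAAG, an ETS site, was in 8 of 33 members (24.2%, all genes 10.2%). The E-box CACGTG, which MYC and MAX can bind, was in 3 of 33 (PSMB3, PSMD9 and PSME3, 9.09%, all genes 7.73%). All were searched on both strands and 5 pairs of matches overlapped. A match in the letters is not evidence of binding.

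PSMC5, an ATPase of the base, had the smallest p of all members between the controls. Its levels were 133 and 131 RPKM in no-guide libraries, 173 and 174 in non-targeting libraries, 158 and 159 under guide 1, and 167 and 157 under guide 2. The no-guide libraries were the lowest, the non-targeting libraries the highest and the e3 libraries between them, without overlap, and the mean rose by 31.7% between the controls (log2 change 0.39 ± 0.04 SE, adjusted p = 0.00114). A neighbouring ATPase of the ring, PSMC4, rose as well, from 98.4 and 108 to 133 and 139 RPKM (log2 change 0.39 ± 0.06 SE, adjusted p = 0.00559). PSMC3 also rose (log2 change 0.26 ± 0.05 SE, adjusted p = 0.0152).

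In the core, the trypsin-like catalytic subunit PSMB7 had 101.5 and 108 RPKM in no-guide libraries, 134 and 145 in non-targeting libraries, 115 and 120.2 under guide 1, and 114 and 119 under guide 2. Both non-targeting libraries were above all others, and the gene rose by 33.2% between the controls (log2 change 0.41 ± 0.06 SE, adjusted p = 0.00389). PSMB3, a structural beta subunit whose promoter is printed above, had 204 and 219, 269 and 279, 259 and 237, and 244 and 235 RPKM in the same order (log2 change 0.37 ± 0.06 SE, adjusted p = 0.00461). Its non-targeting libraries were again the highest and its no-guide libraries the lowest. The remaining core genes that rose were PSMB2 (log2 change 0.35), PSMB4 (0.21), PSMB6 (0.19), PSMA5 (0.46) and PSMA3 (0.34), with adjusted p from 0.0142 to 0.0435.

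Of the lid subunits, PSMD6 had the largest estimate between the controls, at 42.0 and 34.5 RPKM in no-guide libraries, 55.3 and 55.7 in non-targeting libraries, 51.2 and 51.1 under guide 1, and 48.9 and 47.5 under guide 2. The no-guide libraries were below all 6 libraries that had received a guide (log2 change 0.53 ± 0.09 SE, adjusted p = 0.00752). PSMD14, the deubiquitinase that removes ubiquitin chains from the substrate, had 61.1 and 56.6, 77.7 and 76.6, 70.5 and 81.9, and 73.3 and 70.7 RPKM, with the same separation (log2 change 0.39 ± 0.08 SE, adjusted p = 0.0175). PSMD3 (0.30), PSMD12 (0.31) and PSMD11 (0.20), all structural subunits of the lid, and the base scaffold PSMD2 (0.27) also rose, with adjusted p between 0.00553 and 0.0276. The assembly chaperones of the PSMD family did not pass, with log2 changes of -0.05 (PSMD5), 0.19 (PSMD9) and -0.12 (PSMD10).

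Of the cap genes 1 of 4 passed. PSME2, a subunit of the interferon-inducible cap, had 79.4 and 67.1 RPKM in no-guide libraries, 102 and 105 in non-targeting libraries, 111 and 104 under guide 1, and 102 and 102 under guide 2. All 6 libraries with a guide were above both without one, and the gene rose by 41.6% between the controls (log2 change 0.50 ± 0.08 SE, adjusted p = 0.00553). Its partner in the same cap, PSME1, lies on the same chromosome, 14, and had 80.0 and 66.9, 82.7 and 83.2, 91.7 and 71.3, and 68.8 and 70.4 RPKM (log2 change 0.18 ± 0.12 SE, adjusted p = 0.390). The libraries of PSME1 differed by 17.8% of their mean in the no-guide group and by 25.1% under guide 1, but by 0.65% in the non-targeting group and 2.3% under guide 2. The RPKM ratio of PSME2 to PSME1 was 0.992 and 1.00 in no-guide libraries, 1.24 and 1.26 in non-targeting libraries, 1.21 and 1.47 under guide 1, and 1.49 and 1.45 under guide 2. The log2 change of PSME3 was 0.07 ± 0.06 (SE) and that of PSME4 -0.20 ± 0.10 (SE), neither past the threshold.

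Only 6 of the 17 calls between the controls stayed past the threshold whichever library was left out (PSMB3, PSMB7, PSMC4, PSMC5, PSMD3 and PSME2), and 3 of them stayed called under every alternative of this comparison (PSMB7, PSMC5 and PSME2). The number called was 6 without the second non-targeting library, 9 without the first, 10 without the first no-guide library, 10 after quantile normalization and 5 without a variance trend.

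The e3 libraries were next set against each control alone, and these comparisons share the e3 libraries. Each also shares its control libraries with the test between the controls. A rise between the controls and a fall against the non-targeting guide are therefore not separate results. Against the non-targeting guide 2 members fell, PSMD3 and PSMB7, and none rose, where 3.54% of all genes tested were called lower and 3.3% higher. In 16 of 38 members all 4 e3 libraries were below both non-targeting libraries, against 16.3% of all genes, and 35 of 38 estimates were below 0, against 50% of all genes. The median log2 change was -0.17 over core genes and -0.10 over regulatory genes, beside 0.00 over all genes tested. Most members were above 10 RPKM. Of the 6182 genes of at least that level, 452 were called lower and 1512 had all e3 libraries below both non-targeting libraries. An unadjusted p under 0.05 was found in 2052 of them. At that unadjusted level there were 15 members, where 21.9% of all genes tested passed it. That number was 7 without the first non-targeting library, 4 without the second, 7 after quantile normalization and 6 without a variance trend.

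PSMD3, a structural lid subunit on chromosome 17, had 132 and 141 RPKM in no-guide libraries, 170.2 and 166 in non-targeting libraries, 144 and 141 under guide 1, and 138 and 138 under guide 2. Its e3 libraries lay within or just above the range without a guide and well under the non-targeting libraries. The fall against the non-targeting guide was 16.5% of the mean (log2 change -0.26 ± 0.04 SE, adjusted p = 0.0183). For PSMB7, with the values given above, it was 16.2% (log2 change -0.25 ± 0.05 SE, adjusted p = 0.0332). The lid subunit PSMD12 had 35.1 and 35.0, 42.9 and 44.5, 36.6 and 34.7, and 38.2 and 37.9 RPKM in the order of the groups above, and its e3 libraries were all under the non-targeting ones (log2 change -0.24 ± 0.07 SE, adjusted p = 0.0734). No call was left without either non-targeting library, or without a variance trend, and 1 was left after quantile normalization or without guide 1 library 1 or either guide 2 library.

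Against no guide 8 members rose and 1 fell, and here 8.68% of all genes tested were called higher and 8.03% lower. Of the 6182 genes of at least 10 RPKM, 805 were called higher and 734 lower. Regulatory genes made up 7 of the 8: the ATPases PSMC3 (log2 change 0.21), PSMC4 (0.23) and PSMC5 (0.28), the scaffold PSMD2 (0.24), the lid subunits PSMD6 (0.38) and PSMD14 (0.33), and the cap subunit PSME2 (0.52). The only core gene was PSMB3 (0.20). PSME2 rose most, by 43.4% of the mean (log2 change 0.52 ± 0.08 SE, adjusted p = 0.00326). PSME4 fell by 19.1% (log2 change -0.29 ± 0.08 SE, adjusted p = 0.0415).

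In 17 of 38 members all e3 libraries were above both no-guide libraries (18.4% of all genes) and in 4 below them (22.6%). Of the 6182 genes of at least 10 RPKM, 1439 were above in this way and 1645 below. The estimate was above 0 in 28 members (45.4% of all genes) and below 0 in 10 (54.6%). Median log2 changes were 0.09 over core and 0.14 over regulatory genes, beside -0.03 over all genes. PSME2 alone stayed called under every alternative of this comparison. The number called was 2 without the first no-guide library, 1 without the second, 4 and 5 without the first and second guide 2 library, 4 with no filter and 1 without a variance trend.

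By group mean, 30 of 38 members were highest with the non-targeting guide, against 24.4% of all genes tested and 30.6% of those of at least 10 RPKM. The lowest mean was without a guide in 24 members (28.2% of all genes), with guide 2 in 11 (26% of all genes) and with guide 1 in 3 (20.4%). By class, core genes were lowest without a guide in 7 of 14 and with guide 2 in the other 7, and regulatory genes were lowest without a guide in 17 of 24, with guide 2 in 4 and with guide 1 in 3. A difference between the classes was not tested.

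**Figure D4:**
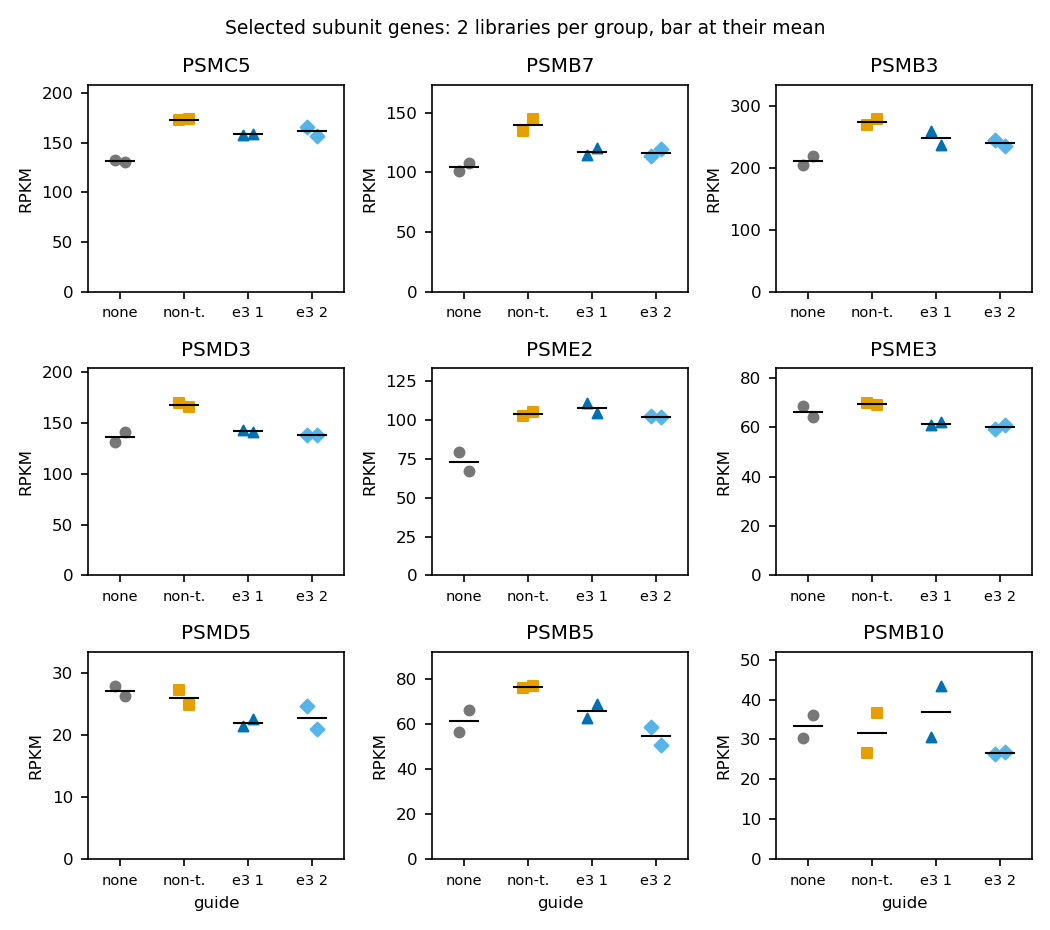
RPKM of 9 selected members by guide (none, non-targeting, e3 guide 1, e3 guide 2), with 1 point per library and a bar at the mean of the 2 libraries. PSMC5, PSMB7 and PSMB3 are highest with the non-targeting guide, PSME2 is lowest without a guide, and PSMD5 and PSME3 are lower in all 4 e3 libraries than in all controls.

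The e3 guides did not differ in any member at an adjusted p under 0.05 in limma, in a comparison that called 0.0215% of all genes higher with guide 2 and 0.00715% lower, 4 genes in all. At an unadjusted p under 0.05 there were 4 of 38 members, PSMB6, PSMA3, PSMB5 and PSMB10, all lower with guide 2. Over all genes tested 10.4% passed that level, so the share among the members was near the background. The number was 2 after quantile normalization or without a variance trend, and without the second guide 2 library it was 3, of which 1 was a core gene. The median log2 difference, guide 2 minus guide 1, was -0.12 over core genes and -0.04 over regulatory genes, beside 0.00 over all genes tested. In 13 of 14 core genes the estimate was below 0 (50% of all genes), and in 10 of 14 after quantile normalization or without the first guide 1 library. Both guide 2 libraries were below both guide 1 libraries in 15 of 38 members (20.5% of all genes), 7 of them core genes, and above them in 3 (20.9%).

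PSMB6, the caspase-like catalytic subunit, had 96.9 and 94.1 RPKM in no-guide libraries, 108 and 111 in non-targeting libraries, 119 and 115 under guide 1, and 105 and 99.5 under guide 2. Its guide 1 libraries were the highest of all, with a log2 difference between the guides of -0.20 ± 0.05 (SE, adjusted p = 0.256). PSMA3, an alpha subunit of the gate, had 55.4 and 47.7, 67.0 and 63.6, 61.4 and 64.4, and 53.4 and 48.7 RPKM, with guide 2 close to no guide and guide 1 close to the non-targeting guide (log2 difference -0.30 ± 0.09 SE, adjusted p = 0.305). The chymotrypsin-like subunit PSMB5, the main site of proteasome inhibitor drugs, had 56.7 and 66.2, 76.2 and 76.8, 62.9 and 69.2, and 58.6 and 50.7 RPKM. Its lowest library was from guide 2 and its highest were non-targeting (log2 difference between the guides -0.27 ± 0.10 SE, adjusted p = 0.396). For PSMB10 the difference was -0.44 ± 0.19 (SE, adjusted p = 0.476), on 37 to 56 inferred reads per library.

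Each guide was also compared alone with both controls, and these comparisons share the control libraries. Guide 1 had 2 called, both higher, where 4.96% of all genes were called higher and 4.03% lower: PSMB6 (log2 change 0.20 ± 0.04 SE, adjusted p = 0.0301) and PSME2 (0.31 ± 0.07 SE, adjusted p = 0.0313). The guide 1 libraries of PSMB6 were above all controls, and those of PSME2 overlapped the non-targeting libraries. Guide 2 had 1 called, PSMB5, which was lower (log2 change -0.32 ± 0.08 SE, adjusted p = 0.0393), where 6.85% of all genes were called higher and 7.62% lower. Its guide 2 libraries overlapped the lower no-guide library. Of the estimates for guide 2, 15 were above 0 (47.3% of all genes) and 23 below (52.7%), the latter with 12 of 14 core genes. Not all of these calls held when a library was left out. Guide 1 had none without either non-targeting or either guide 1 library and 1 without any other library. The call of PSMB5 under guide 2 was lost without either non-targeting library, either guide 2 library or the second no-guide library. Without the first no-guide library guide 2 had 3 called.

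PSMB8 and PSMB9, the interferon-inducible catalytic subunits left out of the members, were expressed here, and their exons overlap on opposite strands in GENCODE 29. PSMB9, which replaces PSMB6 in the immunoproteasome, had 18.1 and 15.8 RPKM in no-guide libraries, 35.2 and 32.1 in non-targeting libraries, 41.9 and 39.6 under guide 1, and 41.5 and 34.8 under guide 2. All 6 libraries with a guide were above those without one, with a log2 change of 0.95 ± 0.11 (SE, adjusted p = 0.00128) between the controls and 0.70 ± 0.23 (SE, adjusted p = 0.114) between the e3 guides and both controls. PSMB8, which replaces PSMB5, had 54.9 and 52.5, 70.9 and 65.5, 78.5 and 68.6, and 65.2 and 53.8 RPKM (log2 change between the controls 0.34 ± 0.10 SE, adjusted p = 0.0737). The RPKM ratio of PSMB9 to PSMB6 was 0.187 and 0.168 without a guide and between 0.289 and 0.396 in the other libraries. The ratio of PSMB8 to PSMB5 was 0.967 and 0.793 in no-guide libraries, 0.931 and 0.853 in non-targeting libraries, 1.248 and 0.993 under guide 1, and 1.11 and 1.06 under guide 2, so all 4 e3 libraries lay above all 4 controls. The ratio of PSMB10 to PSMB7 was 0.2999 and 0.334 in no-guide libraries, 0.198 and 0.252 in non-targeting libraries, 0.267 and 0.360 under guide 1, and 0.233 and 0.224 under guide 2. Here the non-targeting and guide 2 libraries lay below those without a guide and those of guide 1. None of these ratios was tested.

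Other genes of the pathway were taken as lists. Of 12 regulators of subunit transcription, 2 were higher with the e3 guides than with both controls and none lower, where 2.63% of all genes tested were called higher. NFE2L1, which encodes NRF1, had 69.5 and 68.9 RPKM in no-guide libraries, 80.2 and 77.7 in non-targeting libraries, 102 and 104 under guide 1, and 105 and 105 under guide 2. The 3 kinds of library did not overlap, and the log2 change was 0.49 ± 0.06 (SE, adjusted p = 0.00643) for the e3 guides and 0.19 ± 0.05 (SE, adjusted p = 0.0382) between the controls. STAT3, a cytokine-activated transcription factor, had 56.5 and 56.7, 61.6 and 61.1, 74.2 and 70.6, and 74.6 and 72.2 RPKM (log2 change for the e3 guides 0.30 ± 0.06 SE, adjusted p = 0.0190). With group means as samples neither stayed called for the e3 guides (adjusted p = 0.407 for NFE2L1 and 0.416 for STAT3). The call of STAT3 was also lost without the first guide 1 library or either guide 2 library, with an estimated correlation within groups and without a variance trend. Between the controls NFE2L1 was lost whichever library was left out. NFE2L1 and STAT3 were highest in the e3 libraries, and 30 of 38 members were highest with the non-targeting guide. Whether the levels of these regulators and of the members are linked was not tested.

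None of 17 assembly, accessory and inhibitory factors passed between the e3 guides and both controls, and UCHL5, a deubiquitinase of the regulatory particle, had the smallest p (log2 change -0.29 ± 0.09 SE, adjusted p = 0.0876). Between the controls 1 of the 17 was higher, the core assembly chaperone PSMG2, where 6.55% of all genes were called higher. Of 17 genes for ubiquitin, its activating enzymes and delivery factors, 1 was lower with the e3 guides, RPS27A, which encodes ubiquitin fused to a ribosomal protein (log2 change -0.33 ± 0.06 SE, adjusted p = 0.0154), where 2.58% of all genes were called lower. This call was lost with group means as samples (adjusted p = 0.431), without either guide 2 library, with no filter and without a variance trend. In that list 7 of 17 were higher between the controls and none lower (6.55% and 5.81% of all genes). The number higher was 4 without the first no-guide or either non-targeting library and 2 without a variance trend. The COP9 signalosome, a complex related to the lid, had none of 9 called for the e3 guides and 1 higher between the controls (COPS6, lost without any 1 library of either control). At an unadjusted p under 0.05 the assembly list had 1 of 17 (UCHL5) and the signalosome 1 of 9 for the e3 guides against both controls. The ubiquitin list had 5 of 17 and the regulators of transcription 4 of 12, beside 22.2% of all genes tested.

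The members lie on 15 chromosomes by GENCODE 29, with 7 on chromosome 14 and 7 on chromosome 17 and none on that of MYC and e3. Replicates agreed closely for most members: the 2 libraries of a group differed by a median of 5.08% of their mean over 152 pairs, and by more than 20% in 12 pairs. The widest gap was 44.3%, for PSMA6 without a guide. PSMA1, PSMA6, PSMB10 and PSMD9 had fewer than 100 inferred reads in at least 1 library, and none of them passed a test in any comparison.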

How the data were processed

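The deposited values were RPKM for 52576 genes in 8 libraries, 1 column each, per the file headers. Libraries were made from poly(A) RNA, per the labels' protocols. The submitters' processing notes name hg19 and Cufflinks, without a role or version. The aligner, counting, strand setting and annotation are not given in the sources used here. Depth was inferred from RPKM steps: in all 13979 genes tested (100%) the values were whole multiples of 1 read to within 0.03 reads, and no count test was run.

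Tests used limma 3.58.1 (R 4.3.3; two-sided, moderated, variance trend) on log2(RPKM + 1) for genes averaging at least 1 RPKM, with Benjamini-Hochberg adjustment over 13979 genes and a threshold of 0.05. This scale understates changes of low genes. The e3 guides were compared with both controls in 8 libraries as 2 groups, and with 1 control in 6 libraries. The other comparisons used a model with 4 groups. The fits were tested on simulated data. Alternatives were a pseudocount of 0.1, no filter, a minimum of 5 RPKM, 2 scalings, a replicate block, no variance trend and leaving out each library, and, for the e3 guides against both controls, group means as samples and an estimated correlation within groups. The same alternatives for single called members, for genes of the lists and MYC, for the signs of all members and for the medians between the controls were added after seeing the data.

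The members and lists were chosen with earlier results of these data known. All members could be named. Values in every library are given for the 10 members with the smallest p between the e3 guides and both controls, the 4 with the smallest p in each other comparison, the catalytic subunits, and the highest and lowest member of each family. Other members and PSMB8, PSMB9, PSMG2, COPS6 and PSMC1P1 were named for a count or a limit after their values were seen. Promoter windows were printed only where GENCODE 29 exons covered at most 30 of their bases. GENCODE 29 and RefSeq are of another build than the table, so they served for chromosomes, exon overlap and sequence.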

Additional observations from a re-analysis of the deposited data

Results flagged for a closer look

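The 4 e3 and the 4 control libraries of each member were checked, 76 sets in all. In 2 of these sets 1 library was far from the other 3 by Dixon's criterion at the 95% level. Chance flags about 1 set in 20 where all 4 libraries come from 1 population. Each set here pools libraries of different groups, so that rate need not hold. For PSMB1, guide 1 library 1 was at 45.8 RPKM and the other 3 e3 libraries at 38.4 to 39.4 RPKM. For PSME1, the same library was at 91.7 RPKM and the others at 68.8 to 71.3 RPKM.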

How the results depend on the processing

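No member was called between the e3 guides and both controls, or between the e3 guides, under any alternative run for those comparisons. Against no guide 9 members were called, 4 with no filter, 5 with a replicate block, 1 without a variance trend and 1 to 6 with a library left out. Between the controls the count was 17, with 10 after quantile normalization, 5 without a variance trend and 6 to 15 with a library left out. Against the non-targeting guide it was 2, with 1 after quantile normalization, 0 without a variance trend and 0 to 2 with a library left out. For guide 1 the count of 2 became 0 with no filter, 0 without a variance trend and 0 to 1 with a library left out. For guide 2 the count of 1 became 0 with no filter, 4 with a minimum of 5 RPKM, 2 after median-ratio scaling, 0 with a replicate block, 0 without a variance trend and 0 to 3 with a library left out. With a library left out, the median change for the e3 guides against both controls ran from -0.11 to 0.019 over core genes and from -0.027 to 0.053 over regulatory genes. Uncalled changes of the e3 guides against both controls turned sign in 14 of 38 members under at least 1 alternative, in up to 6 under any 1 of them, and 17 estimates above 0 became 13 to 23 with a library left out. Of the 13 members followed singly, these were PSMB10 (-0.20 to 0.032 with a library left out; 0.0097 without no-guide library 2, 0.016 without non-targeting library 2, 0.032 and 0.026 without guide 2 libraries 1 and 2) and PSMB7 (-0.13 to 0.039; 0.0036 and 0.039 without non-targeting libraries 1 and 2). The cause of these changes was not tested. Leaving out a library changes both which libraries remain and how many.

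The replicate numbers did not pair the libraries: deviations of same-numbered libraries correlated between -0.02 and 0.01. With the replicate block 0 members were called between the e3 guides and both controls and 16 between the controls. No setting turned the sign of a called member. Between the controls 187 of 255 member results under an alternative kept direction and side of the threshold and 68 were past the threshold no longer, and against no guide 65 of 117 kept them and 52 did not. With 2 libraries per group and as few as 37 inferred reads for a member, small changes could not be detected.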
